A study of Cucumis melo with 9 samples.

Results

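Melon fruit that had been stored cold and brought back to room temperature were compared here with fruit that was never stored, across all genes of the deposited expression table. The rewarmed fruit were kept at 4 °C for 7 d and moved to about 22 °C for 1 d. The unstored fruit were picked 8 d after the stored fruit and went into no cold room. Each group had 3 RNA-seq libraries, so the comparison used 6 of the 9 libraries of the series. The remaining 3 libraries came from fruit held at 4 °C for 8 d without rewarming, here called chilled. They entered the fit and so its estimate of the spread, and their levels are given only for comparison. All fruit were of 'HT', a climacteric oriental melon grown in a greenhouse and picked ripe, and each replicate pooled 3 fruits. Of 29980 genes in the table, 15022 had a mean above 1 FPKM (fragments per kilobase of gene length, scaled to the total of the library) over the 9 libraries and were tested.

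Storage and picking date differed together between the groups and cannot be told apart. The methods give an age after pollination for ripe picking, without saying whether it held on both picking dates, and the sources used here do not say which part of the fruit gave the RNA. In RNA from bulk tissue, fewer cells of a type and less RNA per cell cannot be told apart. The p-values rest on the spread between 3 pools of fruit within each group, the chilled group included, all from 1 cultivar.

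Climacteric melon ripens under ethylene, which drives softening of the cell wall, loss of green colour and the making of volatile esters. Cold slows these processes, stiffens membranes and disturbs protein folding. The differences from unstored fruit described here are those found after rewarming. They need not have been present in the cold, and they include any effect of picking date.

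The 6 libraries held 15508367 to 19011486 counts and 18343 to 18581 genes with a count. The 1000 most abundant genes took 48.2 to 48.8% of counts in rewarmed libraries, against 47.3 to 47.8% in unstored libraries. Levels below are the deposited FPKM divided by the library's TMM factor (a scaling by the trimmed mean of log ratios), written as FPKM. Unstored replicate 1 stood apart from its group, differing over 2-fold from unstored replicates 2 and 3 in 691 and 524 of the tested genes, while unstored replicates 2 and 3 differed so in 215. It was the highest unstored library in the summed level of surface and of photosynthesis genes, which are therefore also given without it. The ripe-fruit markers were abundant on both sides. CmACO1 (MELO3C014437.2), which makes ethylene, had 1333, 2421 and 633 FPKM in rewarmed fruit, against 1057, 1245 and 1423 FPKM in unstored fruit. CmAAT1 (MELO3C024771.2), which makes esters, had 2833, 2512 and 2033 FPKM in rewarmed fruit, against 1745, 2163 and 2262 FPKM in unstored fruit, and CmNOR (MELO3C016540.2), a ripening NAC factor, had 1000.4, 1098 and 1277 FPKM in rewarmed fruit, against 917, 818 and 684 FPKM in unstored fruit. CmAAT3 (MELO3C024762.2), a further ester gene taken as a marker, was low in both groups, with 0.521, 1.096 and 0.346 FPKM in rewarmed fruit, against 2.44, 3.33 and 12.6 FPKM in unstored fruit.

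A gene was called when its fold change exceeded 2-fold (1 on the log2 scale) and its adjusted p was below 0.05 in edgeR's quasi-likelihood test with Benjamini-Hochberg adjustment over all 15022 genes. Every ± is a standard error of the log2 fold change, rewarmed over unstored. In all, 1925 genes were called, 12.8% of those tested. Lower genes outnumbered higher ones, 1375 (9.15%) being lower in rewarmed fruit and 550 (3.66%) higher. The median log2 fold change was 0.011 over all tested genes, -1.79 over the lower genes and 1.43 over the higher genes. More than 4-fold differences were found in 569 lower and 120 higher genes, and more than 16-fold differences in 120 lower and 21 higher genes. The 3 rewarmed values lay wholly outside the 3 unstored values in 1902 of the called genes and in 52.9% of all tested genes. In 225 higher (40.9%) and 493 lower genes (35.9%), the chilled and rewarmed means lay on opposite sides of the unstored mean. Among all tested genes this was so in 47.0%. In every called gene named below, the rewarmed and unstored values did not overlap. Where leaving out 1 library lost a named call or moved its fold change by over 1.5 times, the value without that library stands beside it. For genes with 1 count or none in a group, that value is the ratio of counts or its bound, not the fitted fold change.

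**Figure D1:**
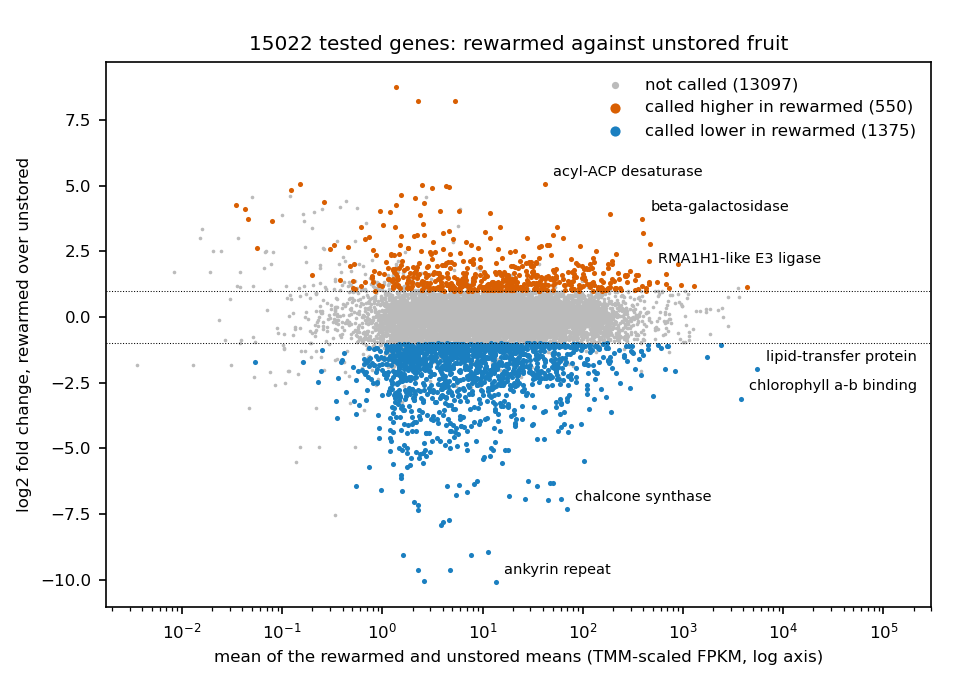
Each point is 1 tested gene, by the mean of its rewarmed and unstored means (x axis, TMM-scaled FPKM, log axis) and its log2 fold change, rewarmed over unstored (y axis), with dotted lines at a 2-fold difference. The 1375 lower genes (blue) reached log2 fold changes near -10, while few of the 550 higher genes (orange) passed 5.

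Among higher genes of at least 10 FPKM, the top rank by log2 fold change was taken by a CORA-like cold and drought gene (MELO3C025652.2) with 26.2, 0.718 and 4.83 FPKM in rewarmed fruit, against 0, 0 and 0.0743 FPKM in unstored fruit. It held 449 counts over the rewarmed libraries, most in replicate 1, against 1 count over the unstored libraries, a 414-fold higher ratio (95% exact counting interval 73.9 to 16393). The ratio was 117-fold without rewarmed replicate 1 (20.5 to 4691), and without unstored replicate 3, which held the 1 count, it was at least 91.9-fold (against 3 counts over the group). Next came an acyl-ACP desaturase (MELO3C008413.2, chr3:5600904-5603465), an enzyme class that places the first double bond into plastid fatty acids. It had 50.8, 80.5 and 111 FPKM in rewarmed fruit, against 2.78, 2.70 and 1.82 FPKM in unstored fruit (log2 fold change 5.05 ± 0.33, adjusted p = 5.52e-05). In chilled fruit it was near 0, at 0, 0.0544 and 0.0450 FPKM. A glycosyltransferase (MELO3C019171.2, chr8:15099336-15102633) had 15.5, 29.6 and 22.5 FPKM in rewarmed fruit, against 2.39, 0.772 and 1.12 FPKM in unstored fruit (log2 fold change 3.98 ± 0.52, adjusted p = 0.00086). The L-asparaginase MELO3C016787.2, which releases ammonia from asparagine, had 17.6, 10.6 and 4.55 FPKM in rewarmed fruit, against 0.334, 0.517 and 1.11 FPKM in unstored fruit (log2 fold change 4.05 ± 0.57, adjusted p = 0.00115, or 4.66 without unstored replicate 3). In all 3 genes the lowest rewarmed library was well above the highest unstored one.

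3-Hydroxy-3-methylglutaryl-CoA reductase (MELO3C026512.2, chr3:24485941-24489903), the rate-limiting enzyme of the mevalonate route to sterols and terpenes, had the largest gain in level. It stood at 1414, 1311 and 1582 FPKM in rewarmed fruit, against 349, 369 and 329.9 FPKM in unstored fruit (log2 fold change 2.04 ± 0.12, adjusted p = 3.01e-05), with little spread inside either group. A flavin-containing monooxygenase (MELO3C010272.2) had 109.6, 85.6 and 139.5 FPKM in rewarmed fruit, against 18.0, 12.3 and 11.6 FPKM in unstored fruit (log2 fold change 3.00 ± 0.25, adjusted p = 0.000119). Both genes described here as stem-specific protein TSJT1 were among the largest gains, and MELO3C006558.2 had 757, 653 and 836 FPKM in rewarmed fruit, against 161, 206 and 143 FPKM in unstored fruit (log2 fold change 2.14 ± 0.16, adjusted p = 6.32e-05). MELO3C021407.2 had 1819, 1704 and 1789 FPKM in rewarmed fruit, against 641, 942 and 751 FPKM in unstored fruit (log2 fold change 1.19 ± 0.17, adjusted p = 0.000982). Ferritin MELO3C018379.2, which stores iron, had 1321, 928 and 709 FPKM in rewarmed fruit, against 422, 463 and 506 FPKM in unstored fruit (log2 fold change 1.09 ± 0.20, adjusted p = 0.00297, or 0.82 without rewarmed replicate 1, where the call was lost). Cystathionine gamma-synthase 1 (MELO3C009845.2), an enzyme of methionine synthesis, had 1042, 959 and 873 FPKM in rewarmed fruit, against 349, 437 and 415 FPKM in unstored fruit (log2 fold change 1.26 ± 0.13, adjusted p = 0.000249). A heavy metal-associated isoprenylated protein, MELO3C009355.2, had 1052, 1575 and 1334 FPKM in rewarmed fruit, against 676, 482 and 554 FPKM in unstored fruit (log2 fold change 1.21 ± 0.28, adjusted p = 0.00958). A non-symbiotic hemoglobin (MELO3C021952.2) had 25.5, 89.8 and 34.5 FPKM in rewarmed fruit, against 6.34, 5.82 and 6.23 FPKM in unstored fruit (log2 fold change 3.02 ± 0.51, adjusted p = 0.00269, or 2.29 without rewarmed replicate 2), rewarmed replicate 2 being the highest.

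Among lower genes of at least 10 FPKM, an ankyrin repeat family gene (MELO3C011475.2, chr3:25788851-25789971) had the lowest log2 fold change. Only 1 count fell on it over the rewarmed libraries, against 1471 over the unstored libraries, and its levels were 0.0541, 0 and 0 FPKM in rewarmed fruit, against 14.1, 27.8 and 39.4 FPKM in unstored fruit. The ratio of counts was 1595-fold lower in rewarmed fruit (95% exact counting interval 286 to 63037). Without rewarmed replicate 1, which held that count, the gene was at least 363-fold lower (against 3 counts over the group). The plastid glucose-6-phosphate/phosphate translocator 2 (MELO3C007378.2), which brings hexose phosphate into plastids, had 0.0322, 0 and 0.0838 FPKM in rewarmed fruit, against 25.9, 10.6 and 31.1 FPKM in unstored fruit (log2 fold change -8.97 ± 0.75, adjusted p = 0.000137, or -10.10 without rewarmed replicate 3). An MP domain-containing protein, MELO3C015184.2, had 2.52, 0.448 and 0.782 FPKM in rewarmed fruit, against 59.9, 141 and 99.3 FPKM in unstored fruit (log2 fold change -6.33 ± 0.55, adjusted p = 0.000161, or -7.31 without rewarmed replicate 1). It was highest in chilled fruit, at 353, 309 and 306.3 FPKM. The rewarmed libraries held 1 count of the ankyrin gene and 4 of the translocator, so the exact size of these differences is uncertain.

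**Figure D2:**
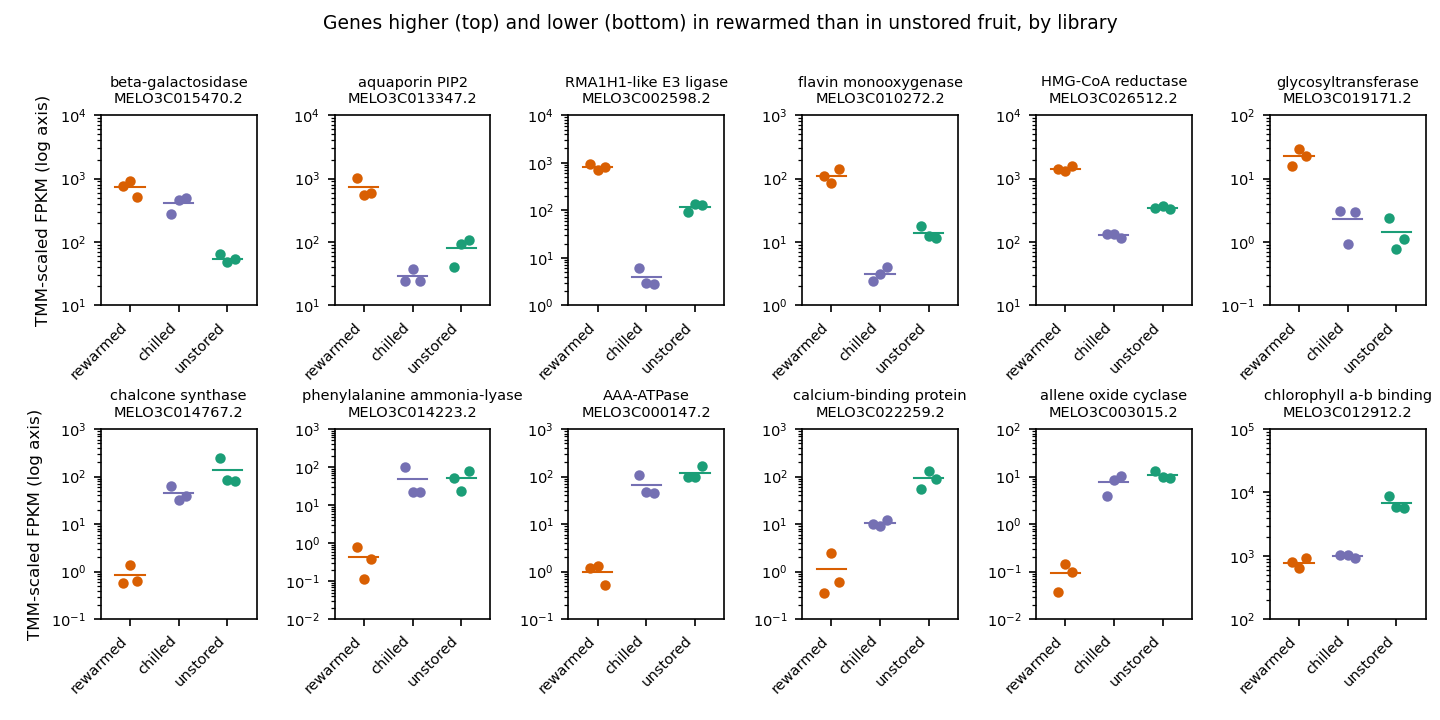
Levels (TMM-scaled FPKM, log axes that differ between panels) of 12 named genes in each library, with points for the 3 replicates and a bar for the mean, in rewarmed, chilled and unstored fruit. In the upper row each rewarmed library lies above each unstored library, and in the lower row below it.

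Protein turnover genes showed a small but broad shift. The proteasome, the complex that degrades ubiquitin-tagged proteins, had 50 tested subunit genes, with a median log2 fold change of 0.74. Of these, 11 were called higher (22.0%) and 1 lower (2.0%), against 3.66% and 9.15% of all tested genes. Without the fold threshold, 45 of the 50 passed adjusted p in the higher direction, where 17.4% of all tested genes did. Of 43 genes assigned by KEGG ortholog, 10 were called higher and none lower, and all 43 lay on the higher side. That list was added after values were seen and is not independent of the first, since both name subunits of the same complex. Of the core particle, the alpha subunit MELO3C007920.2 had 70.3, 71.9 and 75.1 FPKM in rewarmed fruit, against 31.4, 24.3 and 26.7 FPKM in unstored fruit (log2 fold change 1.40 ± 0.14, adjusted p = 0.000207). The beta subunit MELO3C006187.2 had 153, 178 and 170.4 FPKM in rewarmed fruit, against 75.5, 65.5 and 67.6 FPKM in unstored fruit (log2 fold change 1.27 ± 0.09, adjusted p = 5.52e-05). Of the regulatory cap, the 26S protease regulatory subunit MELO3C004218.2 had 26.9, 30.6 and 25.9 FPKM in rewarmed fruit, against 10.5, 10.4 and 10.1 FPKM in unstored fruit (log2 fold change 1.43 ± 0.09, adjusted p = 3.97e-05). The gene on the other side was a gene of low level described as 26S subunit S10B (MELO3C032071.2), with 1.105, 1.01 and 1.70 FPKM in rewarmed fruit, against 7.50, 7.39 and 7.25 FPKM in unstored fruit (log2 fold change -2.52 ± 0.28, adjusted p = 0.000304). Under the 15 other fits, 7 to 12 subunits were called higher, and the median stayed between 0.71 and 0.79. Without unstored replicate 2, 7 subunits were called higher, at a median of 0.71.

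Ubiquitin ligases, which choose the proteins to be tagged, were called in both directions. Of 506 E3 and F-box genes, 18 were called higher (3.6%) and 22 lower (4.3%), against 3.66% and 9.15% of all tested genes. Without the fold threshold, 124 of them (24.5%) passed adjusted p in the higher direction, where 17.4% of all tested genes did, and 55 (10.9%) in the lower direction, where 19.1% did. Single members differed widely. The abundant MELO3C002598.2 resembles RMA1H1, a membrane-anchored ligase known from hot pepper, and had 927, 694.8 and 813 FPKM in rewarmed fruit, against 91.7, 134 and 131 FPKM in unstored fruit (log2 fold change 2.77 ± 0.26, adjusted p = 0.000203). In chilled fruit it was at 6.01, 2.89 and 2.82 FPKM. E3 ligase RGLG2 (MELO3C026594.2), higher too, had 248, 192 and 189 FPKM in rewarmed fruit, against 31.4, 50.4 and 67.0 FPKM in unstored fruit (log2 fold change 2.08 ± 0.32, adjusted p = 0.00161). BAH1 (MELO3C016008.2) had 10.3, 14.2 and 15.7 FPKM in rewarmed fruit, against 1.88, 1.85 and 2.32 FPKM in unstored fruit (log2 fold change 2.73 ± 0.20, adjusted p = 6.45e-05). On the lower side, the RING-type gene MELO3C027800.2 had 6.06, 2.63 and 1.08 FPKM in rewarmed fruit, against 42.6, 42.7 and 27.5 FPKM in unstored fruit (log2 fold change -3.54 ± 0.51, adjusted p = 0.00118, or -4.36 without rewarmed replicate 1). The RING-H2 finger gene ATL66 (MELO3C018366.2), whose description does not name ubiquitin and which was not counted in the list, had 14.98, 11.2 and 9.96 FPKM in rewarmed fruit, against 1.03, 1.68 and 2.18 FPKM in unstored fruit (log2 fold change 2.87 ± 0.31, adjusted p = 0.000271).

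Cytosolic ribosomal protein genes lay on the lower side. Of 208 tested, 19 were called lower and 1 higher, a share of lower calls close to that of all genes, since most differences were under 2-fold. Their median log2 fold change was -0.61, and 162 passed adjusted p in the lower direction without the fold threshold, where 19.1% of all tested genes did, while 5 passed in the higher direction. This held for both subunits, with 56 of 64 genes described as 40S and 80 of 95 described as 60S past adjusted p on the lower side. The acidic protein P1 (MELO3C018985.2) of the large subunit stalk had 8.49, 9.79 and 7.32 FPKM in rewarmed fruit, against 30.2, 31.8 and 36.3 FPKM in unstored fruit (log2 fold change -1.94 ± 0.15, adjusted p = 6.93e-05). Ribosomal protein L2 (MELO3C007892.2) had 46.1, 49.6 and 41.4 FPKM in rewarmed fruit, against 114, 104 and 128 FPKM in unstored fruit (log2 fold change -1.33 ± 0.11, adjusted p = 7.91e-05). Ribosomal protein L1 (MELO3C005664.2) had 9.34, 9.71 and 8.28 FPKM in rewarmed fruit, against 24.4, 25.3 and 26.5 FPKM in unstored fruit (log2 fold change -1.48 ± 0.11, adjusted p = 6.24e-05). Plastid ribosomal genes had 5 of 99 called lower and none higher, with a median of -0.21. Translation factors and tRNA ligases had 2 higher (1.1%) and 8 lower (4.4%) of 183, against 3.66% and 9.15% of all tested genes. Among these, arginine-tRNA ligase (MELO3C021153.2) was abundant and higher, with 509.5, 393 and 474 FPKM in rewarmed fruit, against 101, 174 and 135 FPKM in unstored fruit (log2 fold change 1.75 ± 0.32, adjusted p = 0.00389).

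**Figure D3:**
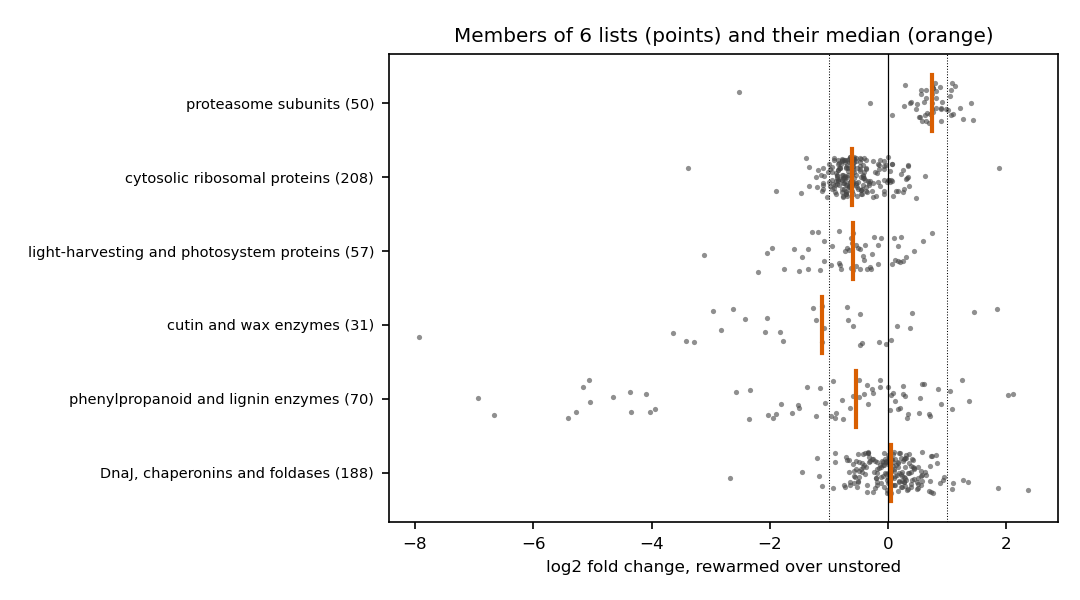
Log2 fold changes, rewarmed over unstored, of the members of 6 lists (1 point a gene, spread vertically for sight, tested members in brackets), with the list median in orange and dotted lines at a 2-fold difference. Proteasome subunits centre on a median of 0.74 and cytosolic ribosomal proteins on -0.61, while chaperones centre near 0.

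Hormone genes were divided by pathway, where 3.66% of all tested genes were called higher and 9.15% lower. Jasmonate, a wound and defence hormone made from linolenic acid, had 9 of 32 genes called lower and 1 higher (median log2 fold change -0.33). Allene oxide cyclase (MELO3C003015.2), which forms the ring of the hormone, had 0.0370, 0.147 and 0.0963 FPKM in rewarmed fruit, against 13.3, 9.68 and 9.43 FPKM in unstored fruit (log2 fold change -6.78 ± 0.52, adjusted p = 7.42e-05). TIFY 10B genes, jasmonate repressors, were lower too, and MELO3C022678.2 had 6.63, 4.74 and 1.61 FPKM in rewarmed fruit, against 28.9, 26.3 and 22.7 FPKM in unstored fruit (log2 fold change -2.59 ± 0.49, adjusted p = 0.00434). MELO3C024336.2 had 17.4, 16.5 and 13.8 FPKM in rewarmed fruit, against 59.1, 46.6 and 55.1 FPKM in unstored fruit (log2 fold change -1.76 ± 0.19, adjusted p = 0.000271). The exception was lipoxygenase MELO3C014482.2, with 69.0, 21.0 and 54.2 FPKM in rewarmed fruit, against 12.5, 15.9 and 15.6 FPKM in unstored fruit (log2 fold change 1.71 ± 0.37, adjusted p = 0.00823). The KEGG jasmonate orthologs, with 10 of 27 lower and none higher, do not include it.

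Abscisic acid genes went mainly the other way, with 4 of 23 called higher (17.4%) and 1 lower (4.3%). Of 35 KEGG orthologs, 5 were higher (14.3%) and none lower, against 3.66% and 9.15% of all tested genes. A 9-cis-epoxycarotenoid dioxygenase (MELO3C016224.2), the committed step of synthesis, had 428, 523 and 477 FPKM in rewarmed fruit, against 242, 246 and 201 FPKM in unstored fruit (log2 fold change 1.05 ± 0.11, adjusted p = 0.000221, or 0.98 without rewarmed replicate 2 and 0.96 without unstored replicate 3, where the call was lost). Of 4 tested genes of this dioxygenase's KEGG ortholog only MELO3C016224.2 was called, and their median log2 fold change was -0.18. Abscisic acid 8'-hydroxylase 1 (MELO3C016219.2), which breaks the hormone down, was the lower member, with 16.8, 9.28 and 8.28 FPKM in rewarmed fruit, against 52.0, 51.7 and 38.5 FPKM in unstored fruit (log2 fold change -2.05 ± 0.36, adjusted p = 0.0033). The receptor PYL4 (MELO3C008314.2) had 41.1, 38.9 and 47.7 FPKM in rewarmed fruit, against 6.22, 11.1 and 8.32 FPKM in unstored fruit (log2 fold change 2.31 ± 0.25, adjusted p = 0.0003). PYL8 (MELO3C023724.2) had 108, 87.7 and 111 FPKM in rewarmed fruit, against 40.1, 58.6 and 47.4 FPKM in unstored fruit (log2 fold change 1.07 ± 0.15, adjusted p = 0.000853, or 0.93 without unstored replicate 1, where the call was lost). The kinase SAPK3-like (MELO3C013893.2), of a family that acts below the receptors, had 29.5, 35.6 and 30.4 FPKM in rewarmed fruit, against 4.54, 8.02 and 4.55 FPKM in unstored fruit (log2 fold change 2.48 ± 0.23, adjusted p = 0.000144).

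Ethylene genes were called in both directions, 4 of 39 being higher (10.3%) and 5 lower (12.8%). Of all tested genes, 3.66% were higher and 9.15% lower. CmACO1 and CmACS1 (MELO3C021182.2) were not called, CmACS1 having 24.8, 22.9 and 18.1 FPKM in rewarmed fruit, against 7.18, 17.6 and 15.9 FPKM in unstored fruit (log2 fold change 0.69 ± 0.34, adjusted p = 0.155). An ethylene receptor (MELO3C006451.2) had 136, 172 and 200.5 FPKM in rewarmed fruit, against 87.8, 90.9 and 75.3 FPKM in unstored fruit (log2 fold change 1.00 ± 0.14, adjusted p = 0.000756, or 0.99 without rewarmed replicate 2, 0.87 without rewarmed replicate 3 and 0.93 without unstored replicate 3, where the call was lost). The minor oxidase gene MELO3C004619.2 was higher, with 3.64, 15.2 and 8.29 FPKM in rewarmed fruit, against 0.129, 0.177 and 0.552 FPKM in unstored fruit (log2 fold change 4.94 ± 0.71, adjusted p = 0.000989, or 4.34 without rewarmed replicate 2 and 5.80 without unstored replicate 3). The minor homolog MELO3C006438.2 was lower, with 1.02, 0.974 and 0.252 FPKM in rewarmed fruit, against 31.6, 9.54 and 32.1 FPKM in unstored fruit (log2 fold change -5.05 ± 0.75, adjusted p = 0.0015). Auxin genes were likewise called in both directions, 7 of 67 higher (10.4%) and 9 lower (13.4%). The auxin-responsive gene MELO3C004382.2 had 18.0, 22.8 and 25.8 FPKM in rewarmed fruit, against 7.22, 6.97 and 6.23 FPKM in unstored fruit (log2 fold change 1.70 ± 0.18, adjusted p = 0.000262). MELO3C024660.2 had 1.36, 0.495 and 0.708 FPKM in rewarmed fruit, against 8.59, 12.3 and 8.15 FPKM in unstored fruit (log2 fold change -3.50 ± 0.34, adjusted p = 0.000166). Of 74 gibberellin, cytokinin and brassinosteroid genes, 7 were higher (9.5%) and 8 lower (10.8%). A cytokinin riboside phosphoribohydrolase (MELO3C025780.2), which releases active cytokinin, was lower, with 2.23, 4.23 and 3.01 FPKM in rewarmed fruit, against 81.5, 57.9 and 99.9 FPKM in unstored fruit (log2 fold change -4.66 ± 0.31, adjusted p = 5.52e-05). The cytokinin response regulator ARR5-like (MELO3C012031.2) was lower as well, with 8.98, 9.86 and 4.59 FPKM in rewarmed fruit, against 42.0, 21.3 and 33.0 FPKM in unstored fruit (log2 fold change -2.04 ± 0.32, adjusted p = 0.00169). Gibberellin 2-beta-dioxygenase 2 (MELO3C030787.2), which inactivates gibberellin, was higher, with 3.84, 12.4 and 1.77 FPKM in rewarmed fruit, against 0.302, 0.198 and 0.0823 FPKM in unstored fruit (log2 fold change 4.92 ± 0.90, adjusted p = 0.00355, or 3.82 without rewarmed replicate 2).

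Of 14 tested flavour genes, 2 were called higher (14.3%) and 3 lower (21.4%), against 3.66% and 9.15% of all tested genes. CmBCAT1 (MELO3C010776.2), a branched-chain aminotransferase that links amino acids to ester precursors, had 1306, 851 and 936 FPKM in rewarmed fruit, against 146.8, 389 and 451 FPKM in unstored fruit (log2 fold change 1.65 ± 0.37, adjusted p = 0.0095). It was far lower in chilled fruit, at 12.2, 13.3 and 11.8 FPKM. CmADH1 (MELO3C023685.2), which turns aldehydes into alcohols, had 409, 605 and 424 FPKM in rewarmed fruit, against 133, 228 and 186 FPKM in unstored fruit (log2 fold change 1.40 ± 0.21, adjusted p = 0.00135). CmLOX18 (MELO3C024348.2), a lipoxygenase that oxidises fatty acids, was low after rewarming, with 14.5, 6.02 and 4.84 FPKM in rewarmed fruit, against 114, 116 and 100.2 FPKM in unstored fruit (log2 fold change -3.71 ± 0.42, adjusted p = 0.000458, or -4.34 without rewarmed replicate 1). Chilled fruit held 7.41, 5.08 and 4.00 FPKM. CmHPL1 (MELO3C010910.2), a hydroperoxide lyase that the table describes as an allene oxide synthase, had 5.02, 2.06 and 2.26 FPKM in rewarmed fruit, against 60.6, 33.3 and 43.9 FPKM in unstored fruit (log2 fold change -3.89 ± 0.38, adjusted p = 0.000262). CmAAT3 was the third lower gene (log2 fold change -3.23 ± 0.71, adjusted p = 0.00822, or -3.82 without rewarmed replicate 2 and -2.15 without unstored replicate 3). CmPDC1 (MELO3C009145.2) had 1618, 1195 and 1399.5 FPKM in rewarmed fruit, against 382, 838 and 905 FPKM in unstored fruit, without overlap, and just missed both thresholds (log2 fold change 0.99 ± 0.35, adjusted p = 0.0559). The ester-forming CmAAT1 did not pass (log2 fold change 0.26 ± 0.15, adjusted p = 0.225), its groups overlapping. Of 4 named regulators none was called, and of 17 candidate transcription factors 1 was, the LOB domain gene MELO3C005013.2 with 10.96, 9.72 and 11.2 FPKM in rewarmed fruit, against 31.0, 34.4 and 50.6 FPKM in unstored fruit (log2 fold change -1.86 ± 0.20, adjusted p = 0.000267). Without the fold threshold, the regulator CmNOR passed adjusted p in the higher direction (log2 fold change 0.48 ± 0.14, adjusted p = 0.0236). Of the 17 candidates, 2 then passed in the higher direction (11.8%) and 4 in the lower (23.5%). Among all tested genes, 17.4% and 19.1% did.

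Cell wall genes were called in both directions, where 3.66% of all tested genes were called higher and 9.15% lower. Of 52 cellulose and hemicellulose genes, 8 were higher (15.4%) and 10 lower (19.2%). Beta-galactosidases strip galactose from wall polymers during softening, and 4 of 10 genes so described were higher, 3 of them neighbours on chromosome 2 from 1973422 to 2018327. The middle one, MELO3C015470.2, had 752, 908 and 513 FPKM in rewarmed fruit, against 63.7, 47.5 and 53.2 FPKM in unstored fruit (log2 fold change 3.72 ± 0.29, adjusted p = 8.12e-05), and chilled fruit held 275, 459 and 498 FPKM. A beta-D-xylosidase (MELO3C021281.2) had 188, 143 and 136 FPKM in rewarmed fruit, against 53.4, 37.4 and 29.2 FPKM in unstored fruit (log2 fold change 1.96 ± 0.25, adjusted p = 0.000777). Endoglucanase-like MELO3C005716.2 had 24.7, 50.8 and 30.6 FPKM in rewarmed fruit, against 7.65, 10.1 and 11.3 FPKM in unstored fruit (log2 fold change 1.87 ± 0.42, adjusted p = 0.00954). On the lower side, COBRA-like protein 7 (MELO3C006694.2), of a family needed for cellulose deposition, had 10.5, 5.93 and 3.38 FPKM in rewarmed fruit, against 25.4, 28.1 and 30.5 FPKM in unstored fruit (log2 fold change -2.09 ± 0.35, adjusted p = 0.00274).

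Pectin-degrading enzymes, which loosen the middle lamella, had 5 of 46 called higher (10.9%) and 9 lower (19.6%), against 3.66% and 9.15% of all tested genes. The rhamnogalacturonate lyase MELO3C003505.2 had 34.5, 29.5 and 29.9 FPKM in rewarmed fruit, against 13.2, 15.9 and 14.8 FPKM in unstored fruit (log2 fold change 1.09 ± 0.11, adjusted p = 0.000167). Polygalacturonase MELO3C011986.2 had 13.3, 10.7 and 18.9 FPKM in rewarmed fruit, against 6.45, 7.04 and 6.03 FPKM in unstored fruit (log2 fold change 1.14 ± 0.23, adjusted p = 0.00462, or 0.88 without rewarmed replicate 3, where the call was lost). Pectate lyase MELO3C012394.2 had 0.517, 0.899 and 0.584 FPKM in rewarmed fruit, against 5.54, 13.7 and 17.5 FPKM in unstored fruit (log2 fold change -4.20 ± 0.77, adjusted p = 0.00386). Polygalacturonase QRT3 (MELO3C009962.2) had 5.02, 3.26 and 1.404 FPKM in rewarmed fruit, against 34.9, 13.8 and 40.3 FPKM in unstored fruit (log2 fold change -3.21 ± 0.57, adjusted p = 0.00341). Expansins and xyloglucan enzymes, which let walls stretch, had 3 of 19 higher and 4 lower, and an abundant xyloglucan endotransglucosylase (MELO3C005245.2) had 257, 215 and 200.3 FPKM in rewarmed fruit, against 68.6, 90.1 and 90.9 FPKM in unstored fruit (log2 fold change 1.43 ± 0.16, adjusted p = 0.000304). Structural wall proteins leaned lower, with 14 of 46 lower and 3 higher (median log2 fold change -0.47). Extensin MELO3C023678.2 had 0.187, 0.0742 and 0.130 FPKM in rewarmed fruit, against 19.4, 9.45 and 5.30 FPKM in unstored fruit (log2 fold change -6.40 ± 0.74, adjusted p = 0.000405, or -5.79 without unstored replicate 1). The hydroxyproline-rich MELO3C007692.2 was the abundant exception, with 444, 400.2 and 341 FPKM in rewarmed fruit, against 116, 129.8 and 148 FPKM in unstored fruit (log2 fold change 1.59 ± 0.44, adjusted p = 0.0216, not called without rewarmed replicate 1, unstored replicate 1, unstored replicate 2 or unstored replicate 3, where adjusted p = 0.0514 to 0.074).

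Phenylpropanoid genes, which lead from phenylalanine to lignin and phenolic esters, had 21 of 70 called lower and 6 higher (median -0.55). Of 12 phenylalanine ammonia-lyase genes, which open the pathway, 11 were lower, with a family median log2 fold change of -4.35. Many lie side by side, and where such copies are near identical the counting could have split their reads, so their single values are uncertain. On chromosome 8, 6 of them stood between 31293521 and 31331523 as an unbroken run of lower tested genes. MELO3C014227.2 of the chromosome 8 run had 1.01, 0.182 and 0.219 FPKM in rewarmed fruit, against 18.7, 6.26 and 34.6 FPKM in unstored fruit (log2 fold change -5.41 ± 0.80, adjusted p = 0.00141, or -6.60 without rewarmed replicate 1 and -4.74 without unstored replicate 3). The most abundant family member, MELO3C025786.2, had 90.7, 83.6 and 65.5 FPKM in rewarmed fruit, against 543, 186 and 198 FPKM in unstored fruit (log2 fold change -1.95 ± 0.44, adjusted p = 0.00931). The only one not called, MELO3C015503.2, had 32.2, 29.6 and 34.2 FPKM in rewarmed fruit, against 21.7, 19.1 and 25.8 FPKM in unstored fruit (log2 fold change 0.53 ± 0.17, adjusted p = 0.0388). Further along the pathway, 4-coumarate-CoA ligase 2 (MELO3C024724.2) had 0.0550, 0.273 and 0.0716 FPKM in rewarmed fruit, against 26.1, 8.67 and 6.30 FPKM in unstored fruit (log2 fold change -6.67 ± 0.97, adjusted p = 0.00137, or -7.66 without rewarmed replicate 2 and -5.81 without unstored replicate 1). Of 8 tested genes of this ligase's KEGG ortholog 2 were called lower and none higher, and their median log2 fold change was -0.58.

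Of 46 KEGG phenylpropanoid orthologs, 19 were lower (41.3%) and 5 higher (10.9%), against 9.15% and 3.66% of all tested genes. Some later lignin-side enzymes were among the higher genes. Caffeoyl-CoA O-methyltransferase (MELO3C011872.2), which methylates lignin precursors, had 252, 352 and 262 FPKM in rewarmed fruit, against 88.5, 66.7 and 56.8 FPKM in unstored fruit (log2 fold change 2.03 ± 0.22, adjusted p = 0.000334). Caffeoylshikimate esterase (MELO3C002421.2) had 5.24, 11.2 and 7.27 FPKM in rewarmed fruit, against 3.13, 1.12 and 1.27 FPKM in unstored fruit (log2 fold change 2.11 ± 0.43, adjusted p = 0.00613, or 2.71 without unstored replicate 1). A hydroxycinnamoyltransferase (MELO3C023474.2) of the same branch had 205, 184 and 187 FPKM in rewarmed fruit, against 96.0, 97.4 and 77.8 FPKM in unstored fruit (log2 fold change 1.09 ± 0.14, adjusted p = 0.000581, or 0.99 without unstored replicate 3, where the call was lost). Flavonoid genes had 5 of 19 lower and 1 higher. Chalcone synthase (MELO3C014767.2, chr6:24519328-24522250), the entry enzyme of flavonoids, had 0.584, 1.36 and 0.648 FPKM in rewarmed fruit, against 244, 85.0 and 82.2 FPKM in unstored fruit (log2 fold change -7.31 ± 0.64, adjusted p = 0.000167, or -6.62 without unstored replicate 1). Unstored replicate 1 was the highest, and chilled fruit held 63.5, 32.6 and 39.4 FPKM. Flavanone-3-hydroxylase (MELO3C035229.2) had 0.271, 0.701 and 0.236 FPKM in rewarmed fruit, against 20.7, 6.22 and 13.8 FPKM in unstored fruit (log2 fold change -5.07 ± 0.59, adjusted p = 0.000418, or -5.71 without rewarmed replicate 2). Isoflavone reductase-like MELO3C023304.2 had 6.51, 8.47 and 4.48 FPKM in rewarmed fruit, against 132, 90.6 and 187 FPKM in unstored fruit (log2 fold change -4.40 ± 0.43, adjusted p = 0.000262). A dihydroflavonol reductase (MELO3C035246.2) was higher, with 186, 121 and 181 FPKM in rewarmed fruit, against 48.2, 93.7 and 79.6 FPKM in unstored fruit (log2 fold change 1.14 ± 0.26, adjusted p = 0.0101, or 0.89 without unstored replicate 1, where the call was lost). Class III peroxidases, wall enzymes that couple lignin units, had 7 of 25 lower and 3 higher, and MELO3C031049.2 had 0.234, 1.66 and 0.319 FPKM in rewarmed fruit, against 21.9, 74.3 and 71.4 FPKM in unstored fruit (log2 fold change -6.26 ± 1.04, adjusted p = 0.00245, or -7.63 without rewarmed replicate 2).

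**Figure D4:**
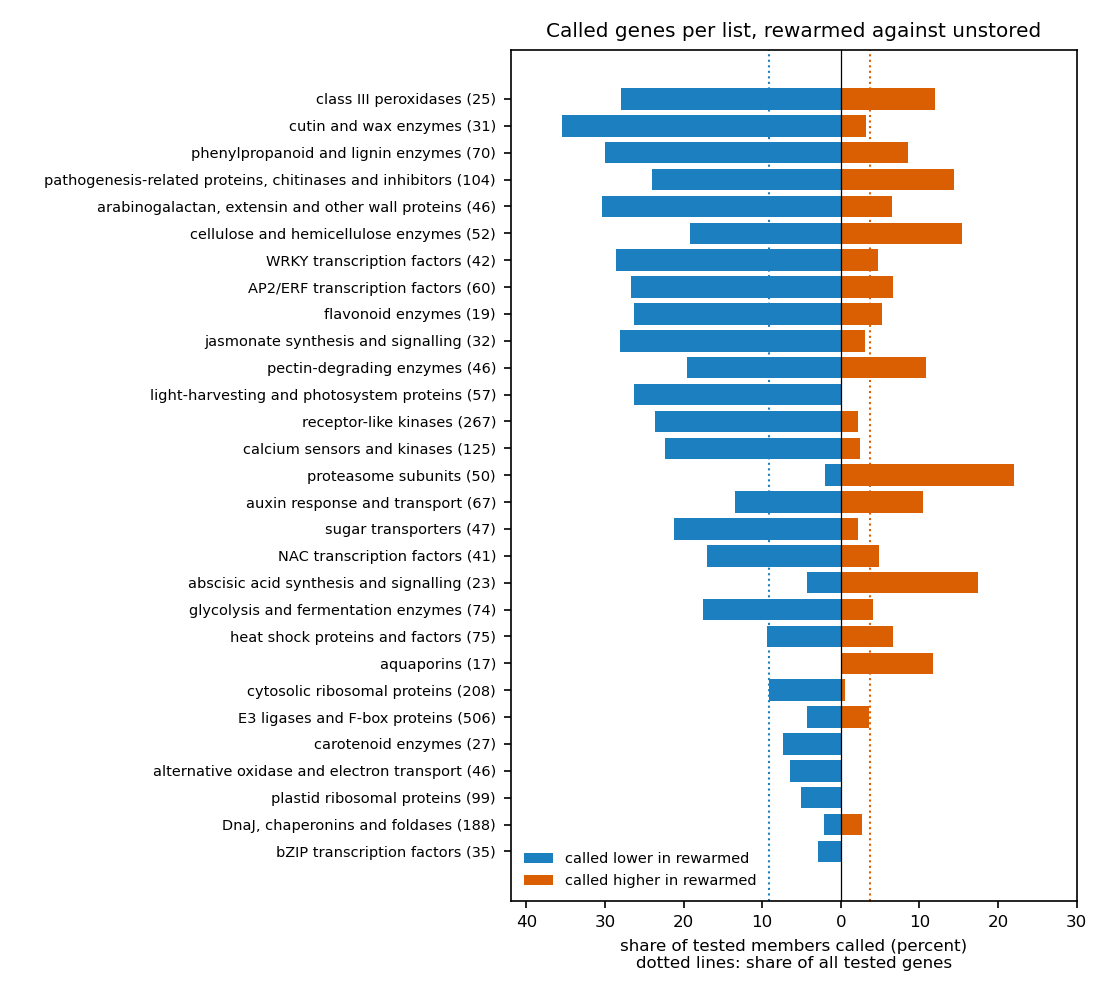
Percent of tested members called lower (blue, leftwards) and higher (orange, rightwards) in rewarmed fruit for 29 lists, tested members in brackets, ordered by the share called in either direction. Dotted lines mark the 9.15% lower and 3.66% higher of all tested genes.

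Photosynthesis genes were called lower and never higher, where 9.15% of all tested genes were called lower and 3.66% higher. Of 57 light-harvesting and photosystem genes, 15 were called lower and none higher (median -0.59). Most of them belonged to the antenna, which gathers light for the reaction centres, since 10 of 17 chlorophyll a-b binding genes were lower, beside 3 of 37 KEGG photosystem subunits. Chlorophyll a-b binding protein MELO3C012912.2 had 797, 638 and 914 FPKM in rewarmed fruit, against 8648, 5949 and 5645 FPKM in unstored fruit (log2 fold change -3.11 ± 0.21, adjusted p = 5.52e-05). The antenna gene MELO3C002727.2 had 885, 881 and 968 FPKM in rewarmed fruit, against 2934, 2640.3 and 2187 FPKM in unstored fruit (log2 fold change -1.51 ± 0.17, adjusted p = 0.000305). A further antenna gene, MELO3C024206.2, had 1447, 1422 and 1776 FPKM in rewarmed fruit, against 3992, 3165 and 2645 FPKM in unstored fruit (log2 fold change -1.08 ± 0.21, adjusted p = 0.00391, or -0.92 without unstored replicate 1, where the call was lost). Photosystem I subunit III (MELO3C021788.2) had 479, 360.3 and 478 FPKM in rewarmed fruit, against 985, 957 and 855 FPKM in unstored fruit (log2 fold change -1.09 ± 0.14, adjusted p = 0.000553, or -0.96 without rewarmed replicate 2, where the call was lost). The photosystem II 22 kDa protein (MELO3C010608.2), which vents excess light as heat, had 24.8, 15.9 and 22.7 FPKM in rewarmed fruit, against 120.3, 77.8 and 64.6 FPKM in unstored fruit (log2 fold change -2.05 ± 0.25, adjusted p = 0.000557). Summed over the list, the level was 13632, 10599 and 14848 FPKM in rewarmed fruit, against 34917, 28535 and 25200.0 FPKM in unstored fruit, without overlap. Unstored replicate 1 held the highest sum, and without it 13 genes were called lower, at a median of -0.46. Of 16 chlorophyll synthesis genes 2 were lower, porphobilinogen deaminase (MELO3C024010.2) having 46.4, 45.5 and 52.0 FPKM in rewarmed fruit, against 178, 123 and 112 FPKM in unstored fruit (log2 fold change -1.52 ± 0.16, adjusted p = 0.000284). Chloroplast-encoded genes did not follow, with 1 of 26 lower and a median of 0.07.

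Surface lipid genes were also called mainly lower, where 9.15% of all tested genes were called lower and 3.66% higher. Cutin and wax form the waterproof skin of the fruit, and 11 of 31 of their enzymes were lower and 1 higher (median -1.12). The summed level was 631, 1316 and 1127 FPKM in rewarmed fruit, against 4064, 1304 and 1463 FPKM in unstored fruit. Only unstored replicate 1 stood clear of the rewarmed range by a wide margin, and unstored replicate 2 lay inside it. Without unstored replicate 1, 9 of the genes were called lower, and the median was -0.69. Wax alkane gene ECERIFERUM 1-like (MELO3C006253.2) had 15.99, 34.7 and 34.8 FPKM in rewarmed fruit, against 675, 207 and 178 FPKM in unstored fruit (log2 fold change -3.63 ± 0.61, adjusted p = 0.00269, or -2.77 without unstored replicate 1). The cytochrome P450 77A3-like gene MELO3C019884.2, of a family that makes cutin monomers, had 2.70, 6.92 and 6.95 FPKM in rewarmed fruit, against 114, 26.05 and 38.6 FPKM in unstored fruit (log2 fold change -3.43 ± 0.59, adjusted p = 0.00296, or -2.57 without unstored replicate 1). 3-Ketoacyl-CoA synthase MELO3C006484.2, which lengthens wax acyl chains, had 6.07, 5.72 and 6.56 FPKM in rewarmed fruit, against 82.9, 26.8 and 33.7 FPKM in unstored fruit (log2 fold change -2.96 ± 0.40, adjusted p = 0.00102, or -2.32 without unstored replicate 1).

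Lipid-transfer proteins, small secreted carriers abundant in epidermis, had 5 of 12 called lower (41.7%) and 2 higher (16.7%), against 9.15% and 3.66% of all tested genes. Without unstored replicate 1, 4 of these proteins were called lower and none higher. The dominant one, MELO3C009108.2, had 1659, 2625 and 2373 FPKM in rewarmed fruit, against 14650.0, 6002 and 5687 FPKM in unstored fruit (log2 fold change -1.99 ± 0.38, adjusted p = 0.004). Of 30 desaturase and fatty acid synthesis genes 7 were lower and 2 higher. A plastid delta-7 desaturase (MELO3C015744.2), which acts on membrane galactolipids, had 43.8, 134 and 154 FPKM in rewarmed fruit, against 1706, 480.2 and 492 FPKM in unstored fruit (log2 fold change -3.01 ± 0.71, adjusted p = 0.0114, or -2.15 without unstored replicate 1). The delta-8 desaturase MELO3C021176.2, of sphingolipids, was higher, with 717, 353 and 521 FPKM in rewarmed fruit, against 91.7, 223 and 212 FPKM in unstored fruit (log2 fold change 1.59 ± 0.36, adjusted p = 0.00944).

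Lists of phloem and seed genes, included as a check on the tissue sampled, were also called lower in part, beside 9.15% of all tested genes. Phloem proteins had 5 of 10 lower and none higher, and summed to 89.9, 80.0 and 109.5 FPKM in rewarmed fruit, against 297, 549.7 and 387 FPKM in unstored fruit. Most of this was 26 kDa phloem lectin (MELO3C002874.2), with 29.8, 29.6 and 51.1 FPKM in rewarmed fruit, against 206, 423 and 285 FPKM in unstored fruit (log2 fold change -3.05 ± 0.31, adjusted p = 0.000294). Seed storage and oil body genes had 4 of 13 lower, and summed to 96.5, 99.9 and 98.1 FPKM in rewarmed fruit, against 159, 136 and 151 FPKM in unstored fruit. Neither list overlapped between groups in its sum, and taken singly 52.9% of all tested genes did not overlap either. The seed list had a median log2 fold change of -0.34, which ranged from -0.544 to 0.016 under the 15 other fits. The part that a different mix of tissues had in the surface, antenna, transport and other results was not tested.

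**Figure D5:**
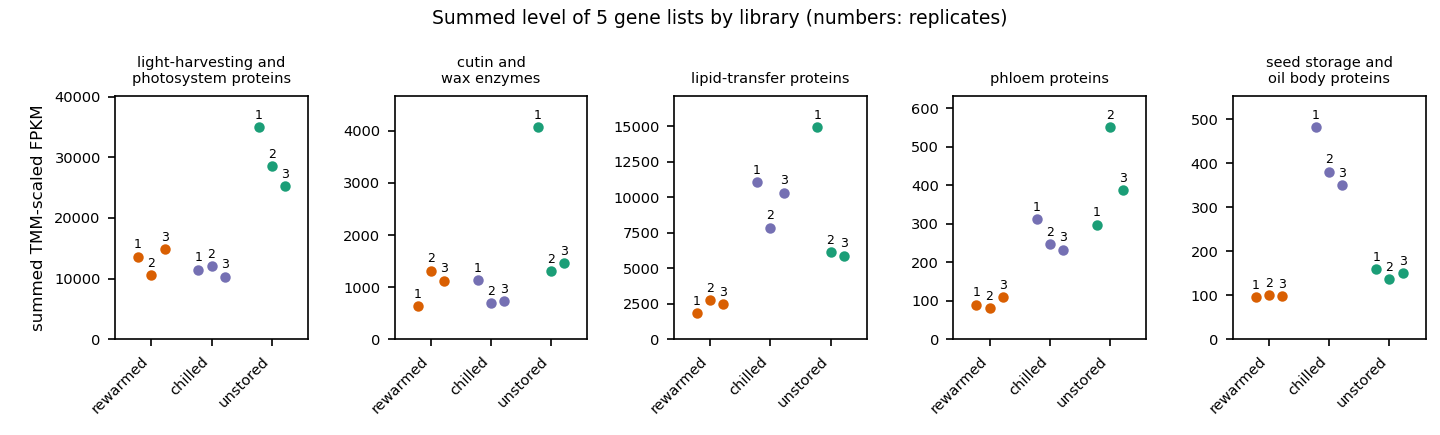
Summed level (TMM-scaled FPKM, axes from 0) of 5 lists in each library of rewarmed, chilled and unstored fruit, with replicate numbers above the points. Unstored replicate 1 is the highest unstored library for photosynthesis, cutin and wax, and lipid-transfer genes but the lowest for phloem proteins.

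Sugar genes were called in both directions, where 3.66% of all tested genes were called higher and 9.15% lower. Of 57 sucrose and starch genes, 6 were higher (10.5%) and 10 lower (17.5%). Sucrose synthase MELO3C015552.2, which cleaves sucrose, had 106, 149 and 108 FPKM in rewarmed fruit, against 48.8, 27.6 and 33.2 FPKM in unstored fruit (log2 fold change 1.73 ± 0.22, adjusted p = 0.000646). Of 4 sucrose synthase genes 1 was called higher and 1 lower, with a median log2 fold change of -0.09. Beta-amylase MELO3C023067.2, which frees maltose from starch, had 95.4, 86.8 and 93.0 FPKM in rewarmed fruit, against 28.9, 40.04 and 32.7 FPKM in unstored fruit (log2 fold change 1.44 ± 0.11, adjusted p = 7.42e-05). Of 8 genes described as beta-amylase 2 were called higher and 1 lower, with a median log2 fold change of 0.41. Raffinose synthase MELO3C009979.2, of a sugar that plants gather in cold, was low, with 2.40, 2.89 and 3.88 FPKM in rewarmed fruit, against 35.1, 39.9 and 23.1 FPKM in unstored fruit (log2 fold change -3.42 ± 0.37, adjusted p = 0.000375). Of 4 tested genes of this synthase's KEGG ortholog only MELO3C009979.2 was called, and their median log2 fold change was -0.08. Sugar transporters had 10 of 47 lower and 1 higher, with SWEET gene MELO3C026183.2 at 0.221, 0.834 and 0.383 FPKM in rewarmed fruit, against 18.6, 7.64 and 3.904 FPKM in unstored fruit (log2 fold change -4.38 ± 0.76, adjusted p = 0.00294, or -5.01 without rewarmed replicate 2 and -3.59 without unstored replicate 1). The polyol carrier MELO3C031859.2 was the higher one, with 14.3, 16.4 and 8.02 FPKM in rewarmed fruit, against 3.62, 2.82 and 2.88 FPKM in unstored fruit (log2 fold change 2.05 ± 0.25, adjusted p = 0.000463).

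Glycolysis and fermentation genes had 13 of 74 lower (17.6%) and 3 higher (4.1%), against 9.15% and 3.66% of all tested genes. The higher ones were CmADH1 and the genes of a pyruvate kinase and an aldolase. The pyruvate kinase (MELO3C024508.2), which ends glycolysis, had 17.0, 25.3 and 31.6 FPKM in rewarmed fruit, against 4.54, 3.78 and 3.83 FPKM in unstored fruit (log2 fold change 2.61 ± 0.23, adjusted p = 0.000119). The fructose-bisphosphate aldolase (MELO3C009438.2), which splits the sugar, had 591, 593 and 783 FPKM in rewarmed fruit, against 245, 278 and 248 FPKM in unstored fruit (log2 fold change 1.35 ± 0.13, adjusted p = 0.000155). Among 11 genes described as pyruvate kinase 1 was called lower (family median 0.11), and so was 1 of 5 fructose-bisphosphate aldolases (family median -0.70). Phosphofructokinase 6-like MELO3C013009.2 was lower, with 2.29, 4.01 and 2.41 FPKM in rewarmed fruit, against 8.88, 12.9 and 12.2 FPKM in unstored fruit (log2 fold change -1.97 ± 0.47, adjusted p = 0.0123). Mitochondrial genes by GO term had 1 of 197 higher and 4 lower, at a median of 0.03. The internal alternative NAD(P)H dehydrogenase MELO3C007315.2, which bypasses proton pumping, had 0.668, 0.243 and 0.348 FPKM in rewarmed fruit, against 10.1, 5.15 and 14.3 FPKM in unstored fruit (log2 fold change -4.55 ± 0.65, adjusted p = 0.00124). Of 5 terpene cyclases, which close the rings of triterpenes, 2 were lower. MELO3C001812.2 had 0.869, 0.288 and 0.251 FPKM in rewarmed fruit, against 35.3, 12.02 and 13.4 FPKM in unstored fruit (log2 fold change -5.34 ± 0.69, adjusted p = 0.000601, or -6.04 without rewarmed replicate 1 and -4.69 without unstored replicate 1). MELO3C004329.2 had 1.26, 2.15 and 0.889 FPKM in rewarmed fruit, against 49.95, 17.6 and 18.7 FPKM in unstored fruit (log2 fold change -4.33 ± 0.51, adjusted p = 0.000559, or -3.68 without unstored replicate 1).

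Signalling and defence genes were called mainly lower, as were all tested genes, of which 9.15% were called lower and 3.66% higher. Of 267 receptor-like kinases, which sense signals at the cell surface, 63 were lower and 6 higher (median -0.46). The abundant MELO3C025663.2 had 5.20, 7.69 and 6.14 FPKM in rewarmed fruit, against 118, 76.6 and 151 FPKM in unstored fruit (log2 fold change -4.18 ± 0.45, adjusted p = 0.000361). Another, MELO3C022355.2, was higher, with 37.1, 46.2 and 33.7 FPKM in rewarmed fruit, against 7.87, 12.03 and 10.8 FPKM in unstored fruit (log2 fold change 1.93 ± 0.25, adjusted p = 0.000629). Calcium sensors and kinases had 28 of 125 lower and 3 higher, and the calcium-binding gene MELO3C022259.2 had 0.352, 2.45 and 0.611 FPKM in rewarmed fruit, against 55.0, 134 and 88.7 FPKM in unstored fruit (log2 fold change -6.31 ± 0.54, adjusted p = 0.000108, or -7.43 without rewarmed replicate 2). Genes with the GO term defense response had 24 of 100 lower and 1 higher. Metacaspase-1 (MELO3C017623.2), a cell-death protease, had 2.12, 0.367 and 0.438 FPKM in rewarmed fruit, against 13.9, 14.3 and 18.0 FPKM in unstored fruit (log2 fold change -3.997 ± 0.58, adjusted p = 0.00133, or -5.24 without rewarmed replicate 1). The resistance protein gene MELO3C016725.2 had 0.755, 0.568 and 0.567 FPKM in rewarmed fruit, against 13.3, 13.2 and 22.9 FPKM in unstored fruit (log2 fold change -4.71 ± 0.32, adjusted p = 5.52e-05).

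AAA-ATPases, energy-using enzymes that refold or disassemble other proteins, had 8 of 16 lower and 2 higher, in a list added after values were seen. The gene MELO3C000147.2 had 1.18, 1.29 and 0.513 FPKM in rewarmed fruit, against 96.8, 99.5 and 164 FPKM in unstored fruit (log2 fold change -6.92 ± 0.55, adjusted p = 0.000119). MELO3C030700.2, of the ASD type, had 1.28, 0.446 and 0.389 FPKM in rewarmed fruit, against 64.4, 75.2 and 126 FPKM in unstored fruit (log2 fold change -6.98 ± 0.70, adjusted p = 0.000277, or -7.71 without rewarmed replicate 1). Pathogenesis-related proteins, chitinases and inhibitors were called often on both sides, 15 of 104 higher (14.4%) and 25 lower (24.0%). Among all tested genes, 3.66% were called higher and 9.15% lower. Proteinase inhibitors, several classes of which block digestive proteases of insects, were among the higher genes. MELO3C006464.2 had 264, 595 and 189 FPKM in rewarmed fruit, against 40.1, 6.11 and 22.7 FPKM in unstored fruit (log2 fold change 3.93 ± 0.71, adjusted p = 0.00364, or 3.31 without rewarmed replicate 2 and 4.58 without unstored replicate 1). Trypsin inhibitor 1 (MELO3C017999.2) had 69.0, 123 and 76.0 FPKM in rewarmed fruit, against 16.9, 4.50 and 9.62 FPKM in unstored fruit (log2 fold change 3.12 ± 0.49, adjusted p = 0.0018). Cysteine proteinase inhibitors were among the lower ones, 6 of 14 being lower and 1 higher, with MELO3C018579.2 at 0.786, 2.42 and 3.41 FPKM in rewarmed fruit, against 29.8, 54.5 and 35.0 FPKM in unstored fruit (log2 fold change -4.15 ± 0.47, adjusted p = 0.000391).

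Transcription factor families differed in how often they were called, where 3.66% of all tested genes were called higher and 9.15% lower. WRKY factors, regulators of defence, had 12 of 42 lower and 2 higher, and MELO3C006037.2 had 21.6, 1.89 and 1.24 FPKM in rewarmed fruit, against 127, 116 and 189 FPKM in unstored fruit (log2 fold change -4.14 ± 0.95, adjusted p = 0.0106, or -6.53 without rewarmed replicate 1). AP2/ERF factors had 16 of 60 lower and 4 higher. Ethylene-responsive factor 1B (MELO3C006430.2), which joins ethylene and jasmonate signals in Arabidopsis, had 5.12, 4.51 and 1.101 FPKM in rewarmed fruit, against 59.96, 59.7 and 60.3 FPKM in unstored fruit (log2 fold change -4.08 ± 0.72, adjusted p = 0.00326). NAC factors had 7 of 41 lower and 2 higher, MELO3C001996.2 (NAC 100-like) being at 45.1, 37.2 and 38.02 FPKM in rewarmed fruit, against 14.4, 18.1 and 17.7 FPKM in unstored fruit (log2 fold change 1.26 ± 0.14, adjusted p = 0.00032). MYB factors had 7 of 63 lower and 4 higher. The lower gene MELO3C012890.2 had 1.30, 0.519 and 0.136 FPKM in rewarmed fruit, against 27.9, 29.7 and 33.9 FPKM in unstored fruit (log2 fold change -5.57 ± 0.49, adjusted p = 0.000166, or -6.56 without rewarmed replicate 1). MELO3C009422.2, described by its Myb/SANT-like domain, had 179, 164 and 224 FPKM in rewarmed fruit, against 49.2, 47.3 and 42.1 FPKM in unstored fruit (log2 fold change 2.03 ± 0.28, adjusted p = 0.00102). Among MADS-box and homeobox factors, 6 of 94 were higher and 8 lower, and the MADS-box gene MELO3C022316.2 had 92.1, 72.9 and 63.8 FPKM in rewarmed fruit, against 10.2, 14.5 and 9.57 FPKM in unstored fruit (log2 fold change 2.74 ± 0.18, adjusted p = 5.52e-05). Factors of the bZIP class had 1 of 35 lower and none higher.

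Transporter lists were called to differing extents, where 3.66% of all tested genes were called higher and 9.15% lower. Aquaporins had 2 of 17 higher and none lower (median 0.44). Their median was -0.010 without rewarmed replicate 2, and without unstored replicate 2 another 2 were called lower. PIP2 gene MELO3C013347.2, of the plasma membrane, had 1026, 556 and 593 FPKM in rewarmed fruit, against 40.4, 91.3 and 107 FPKM in unstored fruit (log2 fold change 3.19 ± 0.41, adjusted p = 0.000817). TIP1-1-like MELO3C009377.2, of the vacuole, had 56.1, 42.3 and 41.8 FPKM in rewarmed fruit, against 7.75, 16.4 and 9.47 FPKM in unstored fruit (log2 fold change 2.06 ± 0.28, adjusted p = 0.000844). Nitrate, phosphate and metal transporters had 17 of 98 lower and 2 higher. Potassium channel AKT2/3 (MELO3C019454.2), which in Arabidopsis works in the phloem, had 3.68, 3.42 and 3.35 FPKM in rewarmed fruit, against 21.7, 20.6 and 24.5 FPKM in unstored fruit (log2 fold change -2.68 ± 0.22, adjusted p = 0.000114). ABC transporters had 11 of 79 lower and 1 higher. Without the fold threshold, 17.7% of them passed adjusted p in the lower direction, where 19.1% of all tested genes did. Proton pumps had 1 of 29 higher and 2 lower. Of the proton pumps, the vacuolar pyrophosphatase MELO3C010286.2 was higher, with 443, 440.4 and 461 FPKM in rewarmed fruit, against 214, 236 and 206 FPKM in unstored fruit (log2 fold change 1.04 ± 0.09, adjusted p = 0.000103, or 1.00 without unstored replicate 3, where the call was lost). A plasma membrane ATPase (MELO3C004004.2), which drives uptake at the cell surface, was lower, with 52.7, 53.3 and 53.5 FPKM in rewarmed fruit, against 136, 83.5 and 135 FPKM in unstored fruit (log2 fold change -1.15 ± 0.32, adjusted p = 0.0228, not called without rewarmed replicate 1, rewarmed replicate 2, rewarmed replicate 3, unstored replicate 1 or unstored replicate 3, where adjusted p = 0.0571 to 0.068).

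Stress protein lists differed in how often they were called, where 3.66% of all tested genes were called higher and 9.15% lower. Heat shock proteins and factors had 5 of 75 higher (6.7%) and 7 lower (9.3%), the lower share being close to that of all genes. None of 28 genes with the GO term response to heat was called. The HSP20-like gene MELO3C019955.2 had 86.4, 73.4 and 80.5 FPKM in rewarmed fruit, against 9.28, 18.6 and 18.8 FPKM in unstored fruit (log2 fold change 2.36 ± 0.25, adjusted p = 0.000301). The endoplasmic reticulum chaperone MELO3C005757.2 had 80.6, 97.5 and 76.4 FPKM in rewarmed fruit, against 295, 234 and 291 FPKM in unstored fruit (log2 fold change -1.69 ± 0.17, adjusted p = 0.000211). DnaJ proteins, chaperonins and foldases had 5 of 188 higher (2.7%) and 4 lower (2.1%), both below the shares of all genes. Late embryogenesis, dehydrin and cold-regulated proteins, which protect drying or cold cells, had 4 of 42 higher and 5 lower, 21.4% being called. Glutathione S-transferases, detoxifying enzymes, had 2 of 42 higher and 7 lower, likewise 21.4%, against 12.8% of all tested genes. Antioxidant genes had 5 of 124 higher (4.0%) and 11 lower (8.9%), close to the shares of all genes. Catalase MELO3C017023.2, which breaks down hydrogen peroxide, had 261, 337 and 251 FPKM in rewarmed fruit, against 81.0, 114 and 118 FPKM in unstored fruit (log2 fold change 1.44 ± 0.17, adjusted p = 0.000396). Glutathione peroxidase MELO3C017729.2 had 50.4, 46.5 and 47.4 FPKM in rewarmed fruit, against 15.1, 10.6 and 11.7 FPKM in unstored fruit (log2 fold change 1.95 ± 0.13, adjusted p = 5.52e-05). L-ascorbate oxidase MELO3C015643.2, of the cell wall, was lower, with 36.6, 90.3 and 82.2 FPKM in rewarmed fruit, against 323, 475.03 and 410.0 FPKM in unstored fruit (log2 fold change -2.53 ± 0.48, adjusted p = 0.00446). Dehydration gene ERD15 (MELO3C019981.2) had 255, 359 and 336 FPKM in rewarmed fruit, against 83.3, 77.4 and 74.7 FPKM in unstored fruit (log2 fold change 2.01 ± 0.21, adjusted p = 0.000262). Another gene of that description, MELO3C014211.2, was lower, with 110.1, 73.2 and 74.999 FPKM in rewarmed fruit, against 230.2, 203 and 169.9 FPKM in unstored fruit (log2 fold change -1.22 ± 0.17, adjusted p = 0.000855).

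In 11 genes with at least 1 FPKM in 1 group, all 3 libraries of the other group held no count. Of these, 9 were at 0 in rewarmed and 2 in unstored fruit. Bounds are set against 3 counts over the whole group. Peroxidase MELO3C014658.2 had no count in rewarmed fruit, against 432 counts in unstored fruit, and was at least 156-fold lower, or at least 78.1-fold without unstored replicate 2. PAR1 protein MELO3C006912.2 had none against 320 counts and was at least 115.7-fold lower. The WRKY70-like gene MELO3C020166.2 had none against 317 counts and was at least 114.6-fold lower, or at least 57.0-fold without unstored replicate 3. Fatty acyl-CoA reductase MELO3C001088.2, a wax enzyme, had none against 95 counts, at least 34.3-fold lower, or at least 22.8-fold without unstored replicate 1, and was not called without unstored replicate 3 (adjusted p = 0.0538). The AGAMOUS-type MADS-box gene MELO3C007181.2 had 183 counts in rewarmed fruit, against none in unstored fruit, and was at least 56.3-fold higher. Most of its counts were in rewarmed replicate 1, and without that library it was at least 22.0-fold higher. B12D protein MELO3C026305.2 had 130 counts against none, at least 39.97-fold higher, or at least 26.6-fold without rewarmed replicate 2. Leaving out a library of the group at 0 lowers each bound through depth alone.

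Some calls rested largely on 1 library. Polyamine oxidase 1 (MELO3C023571.2) had 8.42, 67.8 and 4.85 FPKM in rewarmed fruit, against 2.23, 1.49 and 3.86 FPKM in unstored fruit (log2 fold change 3.42 ± 0.99, adjusted p = 0.0266, not called without rewarmed replicate 2, unstored replicate 1, unstored replicate 2 or unstored replicate 3, where adjusted p = 0.054 to 0.0865). Most of this came from rewarmed replicate 2. The brassinosteroid-inactivating type P450 734A1-like (MELO3C026634.2) had 11.3, 40.4 and 6.08 FPKM in rewarmed fruit, against 0.680, 2.97 and 2.51 FPKM in unstored fruit (log2 fold change 3.22 ± 0.75, adjusted p = 0.011, or 2.08 without rewarmed replicate 2), again with rewarmed replicate 2 highest. Among the lower genes, both of the RNA-dependent RNA polymerase genes given here, of a family that copies RNA in silencing, were highest in unstored replicate 2. MELO3C005284.2 had 0.0286, 0.0427 and 0.0497 FPKM in rewarmed fruit, against 2.36, 21.4 and 3.83 FPKM in unstored fruit (log2 fold change -7.75 ± 1.17, adjusted p = 0.00161, or -6.18 without unstored replicate 2). MELO3C005257.2 had 0.0458, 0.0303 and 0.0265 FPKM in rewarmed fruit, against 2.62, 17.2 and 4.18 FPKM in unstored fruit (log2 fold change -7.80 ± 1.06, adjusted p = 0.000995, or -6.56 without unstored replicate 2).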

How the data were processed

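The 9 libraries were made by the submitters from total RNA of melon fruit, 3 each of rewarmed, chilled and unstored fruit, each from 3 pooled fruits. Their processing notes name cutadapt 1.15 and HISAT2 2.0.5. The study's methods give the DHL92 v3.5.1 melon genome as the reference, while the table names no build, and no source used here gives the strand setting of the counting, so reads of overlapping genes on opposite strands cannot be told apart. The deposited table holds raw counts per gene, with FPKM values that the authors computed from the counts, the gene length and the total count of the library. It also holds other deposited columns, namely chromosome, start, end, length, Description, GO and KEGG. Total counts were 15508367 to 19011486 in the 6 libraries compared.

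Counts of the 15022 genes with a mean above 1 FPKM over the 9 libraries were fitted with edgeR 4.0.16 (R 4.3.3), using TMM factors, all 9 libraries in 1 model with group as the term, and the robust quasi-likelihood test of rewarmed against unstored fruit. P-values were adjusted by Benjamini-Hochberg over all tested genes. A call needed a log2 fold change beyond 1 in either direction and an adjusted p below 0.05. Each standard error was taken as the absolute log2 fold change over the root of F. The fit was tested on simulated data. Counts, not FPKM, were tested. Levels are FPKM divided by the TMM factor. Gene lists were made from words in the Description column, GO identifiers and KEGG orthologs, and no test of a list was made. The groups compared, the lists and the rules were chosen with earlier results of these data known, list patterns were corrected for wrong word matches after values were seen, and the AAA-ATPase and KEGG proteasome lists were added then.

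The genes named were drawn from called genes with a Description and groups that did not overlap. They were the 15 with the greatest fold change and the 10 with the greatest difference in level in each direction (at least 10 FPKM in 1 group), up to 3 a direction in each list (at least 5 FPKM), the study's own genes, and genes without a count in 1 group (mean of at least 1 FPKM in the other). The phenylalanine ammonia-lyase genes MELO3C025786.2 and MELO3C015503.2 were named after their values were seen. The alternatives were DESeq2 1.42.0, limma 3.58.1 on log2(FPKM + 1) and log2(FPKM + 0.1), other scalings and filters, a replicate block, a fit without the chilled libraries, other thresholds and leaving out each library. Intervals and bounds cover counting error only. No identifier matched the RefSeq gene table, and no sequence was used.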

Additional observations from a re-analysis of the deposited data

How the results depend on the processing

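Each of 398 named genes kept its direction under every alternative that tested it, 1 gene not being tested under filterByExpr and 1 in the fit without the chilled libraries. Apart from the study's own genes, they were named for groups that did not overlap or for a group without a count. Their kept direction was therefore largely fixed by that choice and is no measure of robustness. List medians did not all keep their sign. They ranged over -0.010 to 0.486 for aquaporins and -0.106 to 0.313 for chloroplast-encoded genes, among others. For genes of the mitochondrion term the range was -0.008 to 0.074, and for seed storage and oil body genes -0.544 to 0.016. Without the fold-change threshold, 2875 genes were lower and 2619 higher in rewarmed fruit. The other settings gave 951 to 1625 lower and 408 to 655 higher genes, with the fewest at adjusted p below 0.01 and the most lower genes without a filter. DESeq2 called 1410 lower and 655 higher. Leaving out 1 library at a time gave 1127 to 1344 lower and 465 to 533 higher genes. Replicate numbers are shared by the groups only as numbers: deviations from the group means correlated at -0.137 to -0.111 between libraries of the same number, against -0.000916 to 0.122 for other pairs, and with the replicate block 1337 genes were lower and 518 higher. Of the named genes, 24 lost their call under limma on log2(FPKM + 1), 19 in the fit without the chilled libraries, 51 at adjusted p below 0.01 and 21 to 45 when 1 library was left out, and no more than 18 under each other setting. With 3 libraries a group, genes near a 2-fold difference or of few counts are the least certain.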

Other observations

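Called genes that stood next to each other were counted over tested genes in chromosome order, after values were seen and without a test. There were 42 runs of 3 or more neighbours called in the same direction, 37 of them lower in rewarmed fruit and 5 higher, and the longest held 6 genes. A higher run of 4 genes on chromosome 6, from 3418379 to 3427955, began with the proteinase inhibitor MELO3C006464.2 and held further inhibitor genes. A lower run of 3 on chromosome 4, from 28250105 to 28278802, held AAA-ATPases of the ASD type, and a lower run of 3 on chromosome 5, from 586751 to 608027, held peroxidases. Near-identical neighbours can share reads, so the members of such runs are not independent of each other.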
